A study of Mus musculus with 6 samples.

Results

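Alternatively activated macrophage genes were followed in cultured damaged hepatocytes (dHeps) as a set of 6 genes: Chil3, Chil4, Alox15, Retnla, Mgl2 and Pf4. The members were the rows of the count table with these symbols, 6 of 52323 genes. They were chosen by their measured levels, since Chil3, Alox15 and Pf4 were among the genes lowest in the compound cocktails relative to solvent. The differences of the members from solvent given here therefore describe the choice, and no test of them is given. Lyz2 and Cd68, which macrophages express in general, were read beside them.

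The libraries came from dHeps of AAV-TBG-Cre:Rosa-LSL-tdTomato mice on a C57BL/6 background, 8 to 10 weeks old at the start, that had been injured with carbon tetrachloride (CCl4). TBG is a liver-specific promoter, so Cre delivered by the adeno-associated virus switches on tdTomato in hepatocytes, and the same allele and injury were shared by all groups. Cells isolated by liver perfusion were kept for 16 days in serum-free Hepatocyte Maintenance Medium with the solvent DMSO, with 3 compounds (3C) or with 5 compounds (5C), and each group had 2 libraries. 3C was made of CID755673 (50 µM), which inhibits protein kinase D, GSK429286A (2 µM), which inhibits the kinase ROCK, and ETC-1002 (5 µM). 5C added salidroside (5 µM), a glucoside from plants, and forskolin (2 µM), which activates adenylate cyclase. The labels do not say whether the 2 libraries of a group came from different animals, so p-values measure only the spread between these libraries, which may be technical.

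Alternative activation is the state that macrophages take on when interleukin 4 or interleukin 13 binds receptors that share the Il4ra chain and activate the transcription factor STAT6. In mice its classic products include the chitinase-like proteins Chil3 (Ym1) and Chil4 (Ym2), the resistin-like protein Retnla, the lipoxygenase Alox15 and the galactose-binding lectin Mgl2. Pf4, platelet factor 4, is a chemokine best known from platelet granules and is also made by some tissue macrophages. Most of these genes are used as markers of wound-healing or type 2 immune responses.

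Chil3 and Chil4 are near copies. Their ungapped stretch of coding sequence with the most differing bases shows where reads are easiest to tell apart. Stretches of the alignment with gaps were left out. The 120 bases come from their GENCODE transcripts on GRCm39 and are drawn with the 15 differing bases in capitals.

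Chil3: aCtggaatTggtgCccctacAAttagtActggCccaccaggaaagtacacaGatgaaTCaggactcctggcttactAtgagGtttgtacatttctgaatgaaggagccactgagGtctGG

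Chil4: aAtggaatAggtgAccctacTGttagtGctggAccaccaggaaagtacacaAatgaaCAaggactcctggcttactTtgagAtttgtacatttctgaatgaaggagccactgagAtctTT

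Over 1197 aligned coding bases, Chil3 and Chil4 were 95.3% identical. Of all 50-base words of its longest coding transcript, Chil3 shared 27.7% with transcripts of other genes, 17.4% with Chil4, and Chil4 shared 20.4%. Mgl2 has a similar partner in Clec10a, to which it was 88.7% identical over 917 aligned coding bases, and it shared 15.9% of its words with other genes. Reads of Chil4 and Mgl2 are therefore uncertain beside those of their more abundant partners. The comparator Lyz2 shared 6.17% of its words with other genes, 5.52% with Lyz1. Alox15, Pf4, Retnla and Cd68 shared no such word with another gene.

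Windows before the RefSeq start sites are shown because the members other than Pf4 are known as products of alternative activation. Motifs in the windows could also be read from letters alone. The sequences are from RefSeq (GRCm38.p6), placed on GRCm39 by exact match and shortened where a GENCODE exon overlapped. Capitals mark the STAT elements and the PU.1 element, the DNA word of a factor that macrophages depend on.

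Chil3, minus strand of chr3:106074881-106075130: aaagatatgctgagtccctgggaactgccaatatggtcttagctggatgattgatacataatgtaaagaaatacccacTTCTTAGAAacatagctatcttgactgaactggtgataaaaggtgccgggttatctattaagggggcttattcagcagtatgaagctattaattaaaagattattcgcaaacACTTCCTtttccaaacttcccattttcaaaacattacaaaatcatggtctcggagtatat

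Chil4, minus strand of chr3:106126824-106127045: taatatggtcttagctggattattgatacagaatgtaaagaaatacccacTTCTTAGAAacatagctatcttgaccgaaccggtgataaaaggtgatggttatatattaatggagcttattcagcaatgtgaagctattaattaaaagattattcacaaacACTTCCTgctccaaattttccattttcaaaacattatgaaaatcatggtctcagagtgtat

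Retnla, plus strand of chr16:48662722-48662894: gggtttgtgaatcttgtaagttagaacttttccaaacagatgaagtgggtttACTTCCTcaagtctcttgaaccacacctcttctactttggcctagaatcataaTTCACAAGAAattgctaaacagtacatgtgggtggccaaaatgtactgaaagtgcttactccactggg

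In the 250 bases before the start, Chil3 and Chil4 held the same STAT element of the form TTCNNNGAA, read as TTCTTAGAA, at 172 to 164 and at 200 to 192 bases before their starts. Retnla held the STAT element with a spacing of 4 that STAT6 prefers, read as TTCACAAGAA, 145 to 136 bases before its start. The form with a spacing of 3 occurred in 7.02% and that with a spacing of 4 in 5.85% of 32851 RefSeq promoter windows, on either strand. The PU.1 element AGGAAGT occurred in all 5 members in the promoter table, Chil3, Chil4, Retnla, Mgl2 and Pf4, and in 7.69% of all windows. The comparator Lyz2 held it too, and Cd68 did not. The windows of Chil3 and Chil4 are alike, so their matches are not separate. The match of Pf4, 10 to 4 bases before its RefSeq start, lay within a GENCODE exon, as did that of Lyz2, 100 to 94 bases before its start. That of Mgl2 lay at the far edge of its window, 250 to 244 bases before its start. The C/EBP element TTGCNNAA occurred in Chil4, Retnla and Pf4 (9.56% of all windows), the GATA element AGATAA in Chil3 (9.99%) and the AP-1 element TGACTCA in none of the 5 (4.46%). No match overlapped another in the windows of the members. These matches describe letters and were not tested as binding sites. The members are spread over 4 chromosomes, with Chil3 and Chil4 neighbours on chromosome 3 and Alox15 and Mgl2 both on chromosome 11.

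Depth was alike in all groups. The deposited estimated counts summed to 65916573 to 69245895 per library. Levels are given as CPM, counts scaled to the library total, and a floor of 12 count units, 3 fragments if 4 units stand for 1, was 0.173 to 0.182 CPM. The libraries held much macrophage RNA for cells labelled hepatocytes: the 20 macrophage markers summed to 9942 and 11027 CPM in DMSO, 3760 and 3826 CPM in 3C and 2666 and 2559 CPM in 5C. The 8 hepatocyte markers summed to 2247 and 1834 CPM in DMSO, 10180 and 10557 CPM in 3C and 9442 and 13982 CPM in 5C. In DMSO, Alb had 1357 and 1182 CPM, Hnf4a 99.2 and 90.3 CPM and Cps1 23.1 and 12.8 CPM. The hepatocyte receptor gene Asgr1 was the lowest of these markers in DMSO, at 0.298 and 0 CPM. In bulk RNA, fewer macrophages and less of a transcript per macrophage cannot be told apart.

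Chil3 dominated the set. This gene (chromosome 3, 106054870 to 106074880, minus strand, GRCm39) encodes a secreted chitinase-like protein that binds sugars without cutting chitin. It had 2252 and 2236 CPM in DMSO, 240.3 and 318.6 CPM in 3C, and 79.5 and 85.2 CPM in 5C. The groups did not overlap, the DMSO libraries differed little, and Chil3 alone took 84.2% to 93.0% of the summed CPM of the members in each library. The mean was 8.03-fold lower in 3C and 27.2-fold lower in 5C than in DMSO, log2 fold changes of -3.04 (SE 0.13) and -4.75 (SE 0.14). Scaled for gene length, Chil3 stood at 1325 ± 52.6 FPKM (SD, n = 2) in DMSO beside 4198 ± 89.4 FPKM of Lyz2. Its FPKM was 32.0% and 31.2% of that of Lyz2 in the DMSO libraries, 11.3% and 15.2% in 3C, and 6.19% and 6.55% in 5C.

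Chil4 (chromosome 3, 106108806 to 106126823, minus strand) encodes the second chitinase-like protein of this pair and was scarce throughout. It had 4.15 and 2.96 CPM in DMSO, from 279 and 195 counts. In 3C it had 5 and 1 counts and in 5C 2 and 0, so all 4 cocktail libraries were under the floor. Against the floor, Chil4 was at least 19.9-fold lower in 3C and at least 20.5-fold lower in 5C than in DMSO. It passed the filter on low counts only through the DMSO libraries. Chil4 made up 0.184% and 0.132% of the joint counts of Chil3 and Chil4 in DMSO, 0.0314% and 0.0046% in 3C, and 0.0364% and 0% in 5C. Whether reads of Chil3 are among the counts of Chil4 was not tested.

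Alox15 (chromosome 11, 70234970 to 70242858, minus strand) encodes the lipoxygenase that oxygenates arachidonic and linoleic acid. It had 41.2 and 22.04 CPM in DMSO, 1.86 and 2.93 CPM in 3C, and 0.333 and 0 CPM in 5C, or 23 counts in one 5C library and none in the other. The groups did not overlap, and the DMSO libraries were farther apart than those of Chil3 or Pf4. The mean was 13.2-fold lower in 3C than in DMSO, a log2 fold change of -3.75 (SE 0.77). In 5C the size of the difference was poorly fixed, since the mean of 0.167 CPM rested on 23 counts in one library. The fitted log2 fold change of -7.54 (SE 1.011) became -14.06 when 5C replicate 1, the library with counts, was left out and -6.56 when 5C replicate 2 was, so no fold is given.

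Pf4 (chromosome 5, 90918479 to 90922110, plus strand), the platelet chemokine, had 134.6 and 142.9 CPM in DMSO, 25.7 and 36.6 CPM in 3C, and 13.3 and 16.0 CPM in 5C. The groups did not overlap. The mean was 4.45-fold lower in 3C and 9.47-fold lower in 5C, log2 fold changes of -2.19 (SE 0.18) and -3.22 (SE 0.19).

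Retnla and Mgl2 gave little or no signal. Retnla (chromosome 16, 48662895 to 48664824, plus strand), a secreted resistin-like protein and one of the most used markers of this state, had 0 counts in all 6 libraries, which allows up to 0.182 CPM, a limit for counting error only. The other resistin family genes, Retn, Retnlb and Retnlg, did not pass the floor in any library either. Mgl2 (chromosome 11, 70020954 to 70028376, plus strand), a lectin of macrophages and dendritic cells, had 0.342 and 0.834 CPM in DMSO, 0.257 and 0.850 CPM in 3C, and 0.217 and 0 CPM in 5C. Its DMSO and 3C libraries overlapped, and no library had more than 58 counts. Its near copy Clec10a had 137.2 and 130.4 CPM in DMSO, so Mgl2 made up 0.249% and 0.636% of their joint counts there and 0% to 4.56% in the cocktails.

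**Figure D1:**
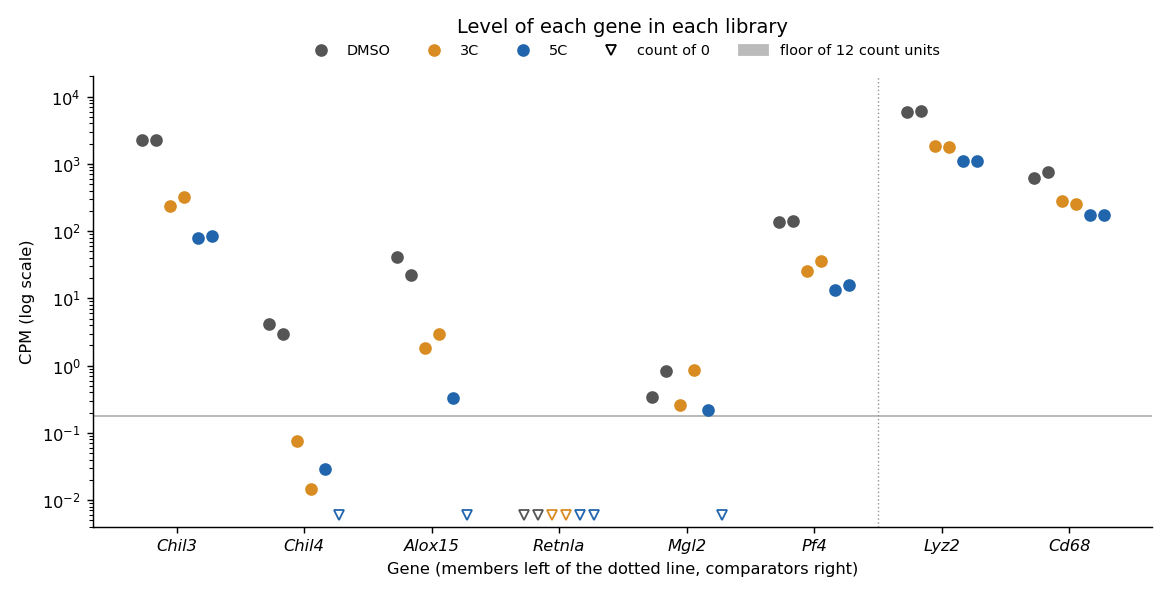
Level of each member and of the comparators Lyz2 and Cd68 in each of the 6 libraries, in CPM on a log axis, with open triangles for counts of 0 and a grey line at the floor of 12 count units. Chil3 lay between 79.5 and 85.2 CPM in 5C against 2236 and 2252 CPM in DMSO, while Retnla was at 0 throughout.

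Of the 6 members, 5 passed the filter on low counts, Chil4 through its DMSO libraries alone. Chil3, Chil4, Alox15 and Pf4 lay below both DMSO libraries in both libraries of each cocktail, as did 32.2% of all genes tested in 5C and 27.7% in 3C. Since the members were picked for low values in the cocktails, nothing is read from this count, and both comparisons use the same DMSO libraries. A gene is called where its edgeR adjusted p was under 0.05 and its log2 fold change beyond 1 in either direction. Of all 19135 genes tested, 11.7% were called in 5C against DMSO, 4.42% lower and 7.3% higher, and 9.45% in 3C, 3.62% lower and 5.83% higher.

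Salidroside and forskolin were the compounds in 5C that 3C lacked. A p is given for members only in 5C against 3C. The members were chosen on values of these same libraries, so their p-values are not independent of the choice. Chil3 and Pf4 were called lower and the other 3 members tested were not. Of all genes tested, 0.852% were called lower and 2.16% higher (3.01% in all), and nothing is read from the members' count beside these shares. Chil3 was at 279.5 ± 55.4 CPM (SD, n = 2) in 3C and fell to 82.4 ± 4.01 CPM in 5C. Its log2 fold change was -1.71 (SE 0.13, 95% interval -2.001 to -1.42) with an edgeR adjusted p of 2.579e-04. Pf4 was at 31.1 ± 7.70 CPM in 3C and fell to 14.6 ± 1.94 CPM in 5C. Its log2 fold change was -1.04 (SE 0.18, 95% interval -1.47 to -0.61) with an edgeR adjusted p of 0.01194. The call of Pf4 rested on a value close to the limit of 1: without 3C replicate 2 its log2 fold change was -0.76 and without 5C replicate 1 it was -0.90, and the call was lost in both cases.

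The remaining members did not pass. Alox15 had a log2 fold change of -3.79 (SE 1.019, 95% interval -6.55 to -1.03) with an edgeR adjusted p of 0.1033. Its 2 libraries in 5C lay below both in 3C, as was the case for 34.8% of all genes tested. Without 5C replicate 1, which leaves only the 5C library at 0, it was called with an edgeR adjusted p of 0.02285, its log2 fold change ranged from -10.31 to -2.81 as each library was left out, and its adjusted p lay between 0.01453 and 0.3869 over all alternatives. Mgl2 had a log2 fold change of -2.29 with a 95% interval from -5.22 to 0.64. Chil4 was under the floor in both groups and gives no fold.

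**Figure D2:**
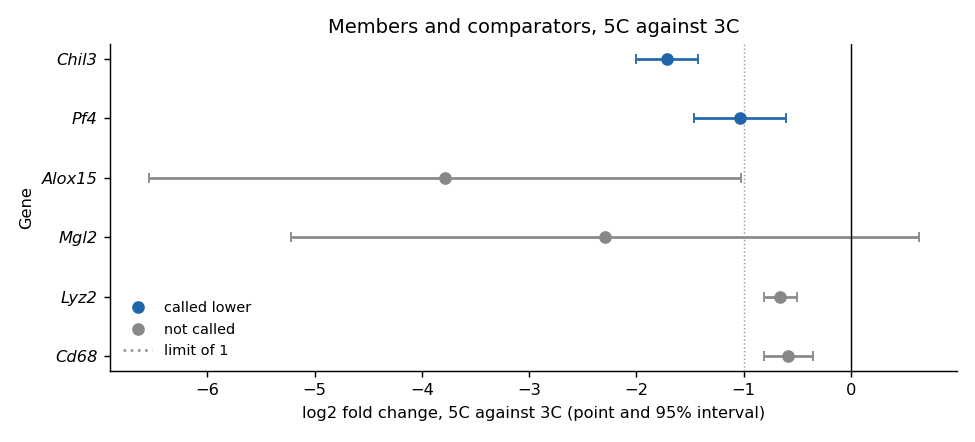
Log2 fold change of 5C against 3C with its 95% interval for 4 members and for Lyz2 and Cd68, with called genes in blue and a dotted line at the limit of 1. The interval of Chil3, -2.001 to -1.42, lies below those of Lyz2 and Cd68, and the interval of Mgl2 spans 0. The members were chosen on values of these same libraries, so their intervals are not independent of the choice.

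The comparators were lower too, by less than Chil3, Alox15 and Pf4. For Pf4 in 3C this did not hold for every macrophage marker, as given below. Lyz2, which encodes lysozyme, had 6024 and 6137 CPM in DMSO, 1821 and 1789 CPM in 3C, and 1099 and 1113 CPM in 5C. Its exons overlap a gene annotated on the other strand, Gm67237, and reads of both cannot be told apart without strand. Cd68, an endosomal glycoprotein, had 625.9 and 765.7 CPM in DMSO, 277.7 and 257.3 CPM in 3C, and 172.5 and 172.4 CPM in 5C. The log2 fold changes of Lyz2 were -2.44 in 5C and -1.78 in 3C, and those of Cd68 were -1.995 and -1.41. Between 5C and 3C, Lyz2 differed by -0.66 (edgeR adjusted p of 5.752e-04) and Cd68 by -0.58 (edgeR adjusted p of 0.006309), both within the limit of 1 on the fold change.

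To place the members against macrophage genes within each library, the mean log2 CPM of Lyz2 and Cd68 was subtracted from the log2 CPM of each abundant member. These differences are descriptions, since the members were chosen for the contrasts with DMSO. Relative Chil3 was 0.21 and 0.04 in DMSO, -1.57 and -1.09 in 3C, and -2.45 and -2.36 in 5C. Relative to Lyz2 and Cd68, Chil3 was thus lower by a further 2.75-fold in 3C and 5.80-fold in 5C, differences of -1.46 and -2.54 on the log2 scale with pooled SDs of 0.25 and 0.10. From 3C to 5C the relative level differed by -1.08, with a pooled SD of 0.24. The 5C libraries lay below both 3C libraries.

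Relative Pf4 was -3.85 and -3.92 in DMSO, -4.79 and -4.21 in 3C, and -5.04 and -4.77 in 5C. The log2 difference from DMSO was -0.61 in 3C and -1.017 in 5C, with pooled SDs of 0.29 and 0.14. Between 5C and 3C, the relative Pf4 of the libraries overlapped, and the difference of -0.40 was close to the pooled SD of 0.32. Relative Alox15 was -5.56 and -6.62 in DMSO and -8.58 and -7.85 in 3C, a difference of -2.13 with a pooled SD of 0.64. In 5C it was -10.35 in the library with counts, and the other library, at 0, was set to its floor. With the mean of the 19 macrophage markers that had counts in every library as the reference, which leaves out Cx3cr1, relative Chil3 differed from DMSO by -2.94 in 5C and -1.70 in 3C, and relative Pf4 by -1.43 and -0.86. This reference keeps Cd14 and Aif1, whose mean levels were higher in the cocktails than in DMSO, which adds to these differences.

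**Figure D3:**
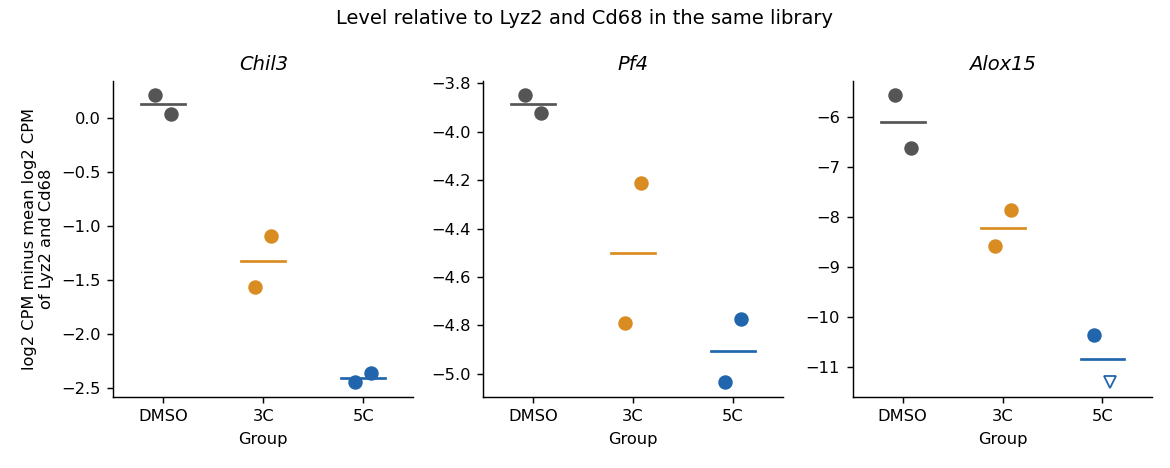
Log2 CPM of Chil3, Pf4 and Alox15 minus the mean log2 CPM of Lyz2 and Cd68 in the same library, with a line at each group mean, an open triangle for a library set to the floor and a separate axis range in each panel. Chil3 lies at -2.45 and -2.36 in 5C against 0.21 and 0.04 in DMSO, while the 3C and 5C libraries of Pf4 overlap.

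Some receptor and signalling genes tied to this state were called. Of 22 genes of interleukin 4 and interleukin 13 signalling, 19 were tested. In each cocktail 2 were called lower and 1 higher than in DMSO. Over all genes tested, 11.7% were called in 5C, 4.42% lower and 7.3% higher. In 3C the shares were 9.45%, 3.62% lower and 5.83% higher. DESeq2 called 4 in each cocktail, and 12 in 5C and 8 in 3C had an unadjusted p under 0.05. The median log2 fold change was -0.30 in 5C and -0.20 in 3C (0.00 and 0.01 over all genes tested), and 14 of the 19 were below 0 in 5C and 13 in 3C. The called genes were Il2rg, the common cytokine receptor chain (-1.90 in 5C, -1.45 in 3C), Klf4, a transcription factor that acts with STAT6 (-1.09 and -1.30), and Cish, an inhibitor of cytokine signalling that rose (1.81 and 1.21). Stat6 itself had 148.3 and 156.5 CPM in DMSO and 120.9 and 123.9 CPM in 5C, with a log2 fold change of -0.30. Il4ra, the shared receptor chain, had log2 fold changes of -0.28 in 5C and -0.58 in 3C, and Il13ra1, its partner for interleukin 13, had 0.27 and 0.02. Jak1, Jak2, Jak3 and Tyk2, the receptor kinases, lay between -0.78 and 0.03 in 5C, and none was called. Kdm6b, a histone demethylase, was at -0.24 and Myc at -0.86. Irf4, a transcription factor that STAT6 can induce, had 1.31 and 1.88 CPM in DMSO, 0.453 and 0.674 CPM in 3C, and 0 and 0.390 CPM in 5C, and Tslp, an epithelial cytokine, had 0.581 and 0.470 CPM in DMSO and 0 to 0.246 CPM in the cocktails. Il13 had 0 counts in all 6 libraries. Il4 had 1.25 and 1.21 CPM in DMSO, 0.846 and 0.586 CPM in 3C, and 0.637 and 0.650 CPM in 5C. For Irf4, Tslp and Il4 all cocktail libraries lay below both DMSO libraries, and none of these genes was called. The same held for others of this list, among them Stat6, Il4ra, Tyk2, Jak3 and Myc. Both libraries of a cocktail lay below both DMSO libraries for 32.2% of all genes tested in 5C and 27.7% in 3C. None of the 19 was called between 5C and 3C by edgeR or DESeq2, and 6 had an unadjusted p under 0.05.

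Other genes of alternative activation were lower in part. Of 15 tested, 7 were called lower in each cocktail against DMSO and none higher, with medians of -1.59 in 5C and -1.18 in 3C. The share called lower over all genes tested was 4.42% in 5C and 3.62% in 3C. Clec10a, the lectin beside Mgl2, had log2 fold changes of -3.76 in 5C and -2.95 in 3C. Clec7a, the beta-glucan receptor, was at -2.96 and -3.13, and Ccl24, an eosinophil-attracting chemokine, at -3.15 and -3.16. The scavenger receptors Cd163 and Msr1 were at -2.12 and -1.96 in 5C, the folate receptor Folr2 at -2.01 and the mannose receptor Mrc1 at -1.59. Arg1, arginase, had 426.2 and 493.3 CPM in DMSO and 247.9 and 257.2 CPM in 5C, and its log2 fold change of -0.85 was not called. Tgm2, a transglutaminase, and Tgfb1, a cytokine of wound healing, had log2 fold changes of 0.43 and -0.29 and were not called, and hepatic cells other than macrophages can express all 3 of these genes. Ccl22 and Cd209a were at 0 in all libraries. Between 5C and 3C, none of the 15 was called by edgeR or DESeq2, whereas 6 had an unadjusted p under 0.05, and the same number an adjusted p under 0.05 with a lower level.

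Classical activation genes, which mark the opposite state, also had members that were lower. Of 14 tested, 6 were called lower in each cocktail, beside 4.42% of all genes tested in 5C and 3.62% in 3C. The medians were -0.25 in 5C and -0.63 in 3C. Cd38, an enzyme that consumes NAD, had log2 fold changes of -1.41 in 5C and -1.14 in 3C. Irf5, a transcription factor, was called lower in 5C (-1.06) and not in 3C (-0.84). Irf1 and Socs3 were not called in any contrast. Cxcl10, Cd80, Cd86 and Fpr2 were also called lower in each cocktail, and Ptgs2 in 3C. Ptgs2, the inducible cyclooxygenase, was the one gene called between 5C and 3C, higher with a log2 fold change of 1.22. Nos2, Tnf and Il6 lay under 1 CPM in every library, and Il1b and Il12b were under the floor.

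Most general macrophage markers were lower in both cocktails. Of 20, 17 were called lower in each cocktail and 1, Cx3cr1, higher, with medians of -2.004 in 5C and -1.46 in 3C. Among all genes tested, 4.42% were called lower in 5C and 3.62% in 3C. The lowest of the 20 was at -2.95 in 5C, beside -3.22 for Pf4. In 3C the lowest was Lyz1 at -2.78, beside -2.19 for Pf4. Lyz1 was scarce, with 4.18 and 5.02 CPM in DMSO and 0.604 and 0.762 CPM in 3C. Whether reads of Lyz2 are among its counts was not tested. Adgre1 (F4/80), the classic macrophage surface marker, had log2 fold changes of -2.32 in 5C and -1.74 in 3C, and Itgam, an integrin chain of myeloid cells, -2.21 and -1.34. C1qa, a complement gene, was at -2.08 and -1.66. In 5C, Csf1r, the receptor for the macrophage growth factor, was at -2.02, the protease Ctss at -2.37, Mpeg1 at -2.03, Laptm5 at -1.83 and the transcription factor Spi1 at -1.79. The other complement genes, C1qb and C1qc, were at -1.88 and -2.06, the Fc receptor genes Fcgr3 and Fcer1g at -1.68 and -1.74, and Tyrobp and Trem2 at -2.26 and -1.99. Cd14, a receptor for bacterial lipopolysaccharide, went the other way, with 92.1 and 87.1 CPM in DMSO, 156.5 and 176.2 CPM in 3C, and 144.1 and 125.0 CPM in 5C. Its log2 fold changes of 0.86 in 3C and 0.60 in 5C had edgeR adjusted p-values of 1.117e-04 and 7.342e-04 and were within the limit of 1. Aif1 was not called (0.47 in 5C and 0.62 in 3C). Cx3cr1 had 0 and 0.0607 CPM in DMSO, under the floor, 2.57 and 5.22 CPM in 3C, and 1.55 and 2.76 CPM in 5C. Between 5C and 3C none of the 20 was called by edgeR or DESeq2, with a median of -0.48, while 17 had an unadjusted p under 0.05 and 16 an adjusted p under 0.05 with a lower level. The part of these markers in the levels of Chil3, Alox15 and Pf4 was not tested beyond the relative levels above.

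Kupffer cell markers, which mark resident liver macrophages, gave 5 of 8 called lower in each cocktail and 1, Id3, higher. Over all genes, 4.42% were called lower in 5C and 3.62% in 3C. Marco, a scavenger receptor, had log2 fold changes of -2.95 in 5C and -1.87 in 3C and was the one marker called between 5C and 3C, lower at -1.08. Fcna was at -2.56 and -2.38, Vsig4 at -1.75 and -1.88, and Cd5l at -2.02 and -2.33, and none of these was called between 5C and 3C. Clec4f, which defines Kupffer cells, had 2.55 and 2.81 CPM in DMSO and was not called in any contrast. Nr1h3 was not called either.

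**Figure D4:**
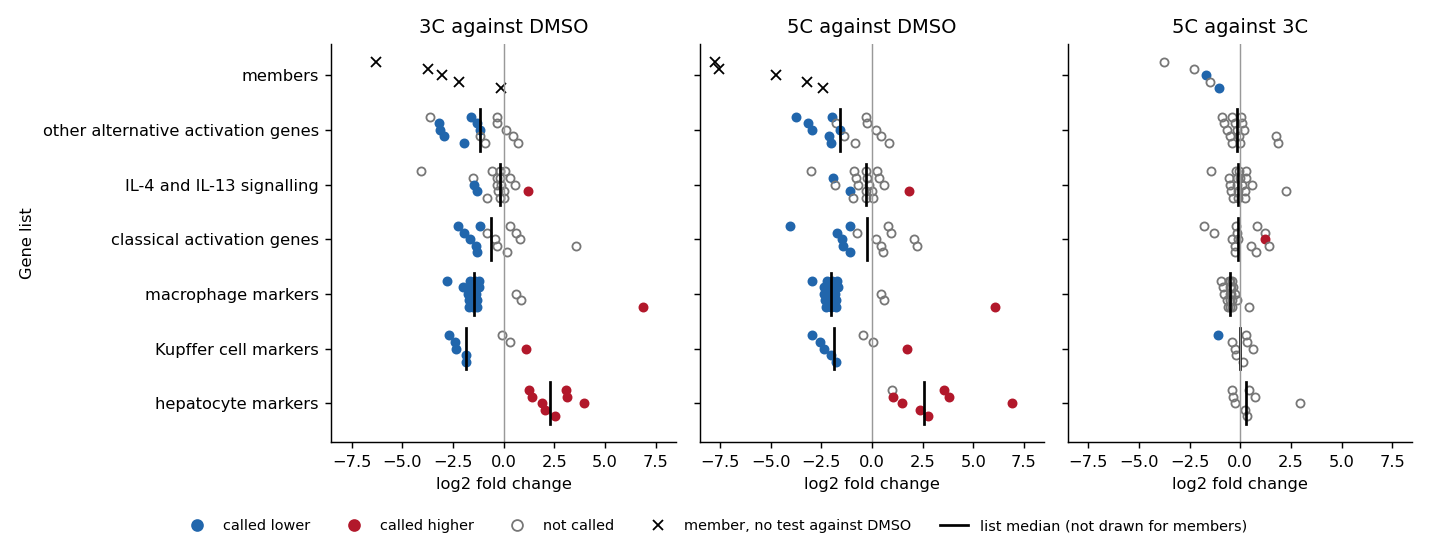
Log2 fold changes of the tested genes of 7 lists in the 3 contrasts, with called genes filled, a bar at each list median (none for the members) and crosses for the members in the contrasts with DMSO, where no test of them is given. Values are as fitted, so those of Chil4, under the floor in both cocktails, and of Alox15 in 5C are no measure of size. In 5C against DMSO, 17 of 20 macrophage markers were called lower and 7 of 8 hepatocyte markers higher, and 14 of 19 interleukin 4 and 13 signalling genes lay below 0 with a median of -0.30.

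Markers of other cells that make these products were scarce. Ppbp, the platelet chemokine next to Pf4, had 0 counts in every library, as did Gp6 and Tubb1, and the 13 platelet and megakaryocyte markers summed to 10.7 and 15.8 CPM in DMSO, 7.38 and 10.4 CPM in 3C, and 22.1 and 27.6 CPM in 5C. Itga2b and Itgb3 were the 2 called higher in 5C against 3C, with log2 fold changes of 1.40 and 1.96, opposite to Pf4. Over all genes tested, 2.16% were called higher in that contrast. Of the 8 platelet markers tested, 6 lay below 0 in 3C against DMSO, as Pf4 did, and 2 were called lower (3.62% of all genes tested). In 5C against DMSO, 4 lay below 0 and 4 above, with 1 called higher (7.3%) and none lower (4.42%). Of 8 eosinophil markers, 7 were at or under the floor in all libraries, with Epx and Prg3 at 0, and the list summed to 0.592 and 0.834 CPM in DMSO, 0.362 and 0.674 CPM in 3C, and 0.753 and 1.53 CPM in 5C. Eosinophils are a known source of Alox15. The 10 neutrophil markers summed to 7.18 and 9.44 CPM in DMSO and 1.60 to 2.83 CPM in the cocktails, mostly Csf3r, with Ngp at 0 and S100a9, Ly6g and Mpo under the floor, and Ltf, near the floor in DMSO and 3C, was at 0 in 5C and called lower than in 3C. The 8 dendritic cell markers, a cell type that uses Mgl2, summed to 14.6 to 18.9 CPM in all groups, mostly Zbtb46 at 12.3 to 15.3 CPM, with Cd209a at 0 and Flt3 and Xcr1 at or under the floor. Of 5 tested, 4 lay below 0 and 1 above in 3C against DMSO, with 2 called lower (3.62% of all genes tested). None was called in 5C against DMSO. Itgax had 0.581 and 1.56 CPM in DMSO and 0.151 and 0.235 CPM in 3C, and Clec9a 0.432 and 0.258 CPM in DMSO and 0 in 3C. Of 12 lymphocyte and mast cell markers, Cd3e was at 0, the list summed to 4.67 to 6.83 CPM in DMSO and 3C and to 10.2 and 11.8 CPM in 5C, and Kit was called higher in 5C against 3C (2.29).

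Relatives of the members within their families did not share one pattern. In the chitinase family, Chid1 (43.8 to 58.5 CPM) and Ctbs (14.5 to 21.9 CPM) were not called in any contrast, and Chil1 was called higher in 5C than in DMSO (1.79). In the lipoxygenase family, Alox5ap, which helps 5-lipoxygenase, had log2 fold changes of -2.08 in 5C and -1.40 in 3C, and Alox5 of -2.19 and -1.41. Among the chemokines around Pf4, Cxcl1 and Cxcl5 were called higher in 3C than in DMSO (1.59 and 3.38). From 3C to 5C, Cxcl5 and Cxcl2 were called lower (-1.73 and -1.56), as was Pf4. Cxcl5 was still called higher in 5C than in DMSO (1.65), and Cxcl2 lay between 0.491 and 1.60 CPM in all libraries. Of the galactose-binding lectins, the liver receptor genes Asgr1 and Asgr2, near Mgl2 on chromosome 11, had log2 fold changes of 6.90 and 3.49 in 5C and were called higher, while Clec10a fell.

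Genes with the pattern most like each member were sought among tested genes averaging 10 CPM or more, by the root mean square difference of centred log2 CPM over 6 libraries. These 6 libraries are those on which the members were chosen. Likeness between members therefore follows in part from the choice, and nothing is read from it. Among the 3 genes nearest to Chil3 were Clec10a (0.46) and Pf4 (0.63). Nearest to Pf4 were Ms4a8a (0.23), Marco, a scavenger receptor (0.23), and Atp2a3, a calcium pump (0.30). Chil3 and Clec10a were also among the 3 nearest to both Chil4 and Alox15, at larger distances of 1.25 to 2.29. Nearest to Mgl2 was Pou2f1 at 0.75, which had 3.48 CPM in 5C replicate 2 beside 23.5 CPM in 5C replicate 1, then Sprr1a and Gsta1.

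Neighbouring genes gave few values. Of the 4 genes within 100 kb of Chil3, only Chil4 was tested. Near Chil4, the pseudogene Gm6522 had 75 and 67 counts in DMSO and 0 in all 4 cocktail libraries, and 18.8% of its 50-base words were shared with Chil3. None of the 4 tested neighbours of Alox15 was called in 5C against DMSO. Of 6 tested neighbours of Mgl2, 1 was called lower and 3 higher, and of 2 of Pf4, 1 was called higher.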

How the data were processed

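RNA libraries were made with a NEBNext Ultra kit and sequenced by a company for the authors. The submitters' processing notes name GRCm39, featureCounts, Subread and DESeq2, without roles. Strand and annotation are not given in the sources used here. The deposited table of estimated counts, whole numbers for 52323 genes, was taken as is: 4 was more frequent (4816 entries) than 3 (3121) or 5 (2303), so units per fragment are uncertain. The deposited FPKM values, scaled by the authors for gene length and library total, were used for levels between genes and in alternatives.

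The main test was edgeR 4.0.16 (quasi-likelihood F test, robust, TMM, filterByExpr) in R 4.3.3 on all 6 libraries, with Benjamini-Hochberg adjustment over 19135 genes. A gene was called where the adjusted p was under 0.05 and the log2 fold change was beyond 1 in either direction. The SE is that implied by the F statistic. Steps were tested on simulated data. Alternatives covered RLE and upper quartile normalization, low-count filters, DESeq2 1.42.0, the 4 libraries of 2 groups, a replicate block, no fold limit, limma 3.58.1 on log2 FPKM, leaving out each library and counts divided by 4, the last added after the data were seen. Relative levels were log2 CPM minus the mean log2 CPM of Lyz2 and Cd68.

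The members and the gene lists were chosen with earlier results of these data known. All members and both comparators are named; of other lists, genes averaging 10 CPM or more, those called in 5C against 3C and defining markers near 0, with others added after their values were seen. Some genes that this rule or the search for like patterns would name are not reported here. Annotation came from GENCODE (GRCm39), which matched 51722 IDs. Figures used matplotlib 3.10.9.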

Additional observations from a re-analysis of the deposited data

How the results depend on the processing

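With limma on log2(FPKM + 1), fewer genes were called: 1229 in 5C against DMSO, 961 in 3C against DMSO and 260 in 5C against 3C, beside 2242, 1809 and 576. Without a limit on the fold change, 5485, 4689 and 2423 genes passed, with 6 other alternative activation genes and 16 macrophage markers lower in 5C against 3C. Leaving out 1 library gave 1923 to 2191, 1535 to 1784 and 381 to 642 genes, the lowest of the last without 5C replicate 2, which also gave a range of 0 to 1 other alternative activation gene. The 7 other alternative activation genes and 17 macrophage markers called lower against DMSO stayed at 7 and 17 when any library was left out. The members called in 5C against 3C numbered 1 to 2, with 1 without 3C replicate 2. The replicate numbers are shared across groups, but libraries of 1 number did not deviate together (r of -0.031 to 0.016). The replicate block gave 2125, 1737 and 536 called genes and 2 called members. The direction of Mgl2 in 3C against DMSO reversed with limma on log2(FPKM + 1) (0.0208), without DMSO replicate 2 (0.68) and without 3C replicate 1 (0.50), and ranged from -1.23 to 0.68 as each library was left out. That of Chil4 in 5C against 3C, where it is under the floor, reversed without 3C replicate 1 (0.0256), in a range from -4.63. Relative to Lyz2 alone, Cd68 alone and the macrophage markers, Chil3 in 5C against DMSO differed by -2.31, -2.76 and -2.94, and Pf4 by -0.79, -1.24 and -1.43. Leaving out 1 library gave relative differences of -2.62 to -2.45 for Chil3 and -1.15 to -0.89 for Pf4 in 5C, -1.69 to -1.22 and -0.90 to -0.33 in 3C, and -1.32 to -0.84 and -0.69 to -0.11 in 5C against 3C. The causes were not tested.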
